A study of Mus musculus with 12 samples.

Results

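The genes described here act in the folding of proteins in the endoplasmic reticulum (ER) and in the degradation of those that do not fold. A list of 39 mouse genes was used, each of which had 1 entry among the 56287 entries of the deposited table. It holds 5 genes of the stress sensors and their transcription factors, 12 chaperones and cochaperones, 5 oxidoreductases, 12 genes of ER-associated degradation (ERAD) and 5 subunits of the translocation channel and its partner complex. Of these, 38 passed the filter on low counts and were tested among 14694 genes. The exception was Derl3, a derlin of the degradation channel, with 0.0817 to 0.346 CPM, the unit of level used here, a count scaled to the size of its library.

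Messenger RNA was sequenced from L929, an established mouse fibroblast line, labelled wild type, in 4 groups of 3 libraries. The group HT-DNA+AOA+Asp received AOA at 0.5 mM, HT-DNA for 6 h from 1 h after the AOA, and Asp at 20 mM. The group HT-DNA+AOA received the AOA and the HT-DNA, the group HT-DNA the DNA without AOA or Asp, and the mock group none of them. HT-DNA, usually herring testis DNA, is a DNA that is transfected as a trigger of cytosolic DNA sensing, here with a lipid reagent. The names AOA and Asp are not spelled out in the labels; in this field they usually stand for aminooxyacetate, an aminotransferase inhibitor, and for aspartate. The study asked whether Asp reverses what AOA does to the response to DNA. No group with AOA or Asp and no DNA was analysed here, so what went with AOA was measured in transfected cells only. Nothing states whether the reagent was also given to mock cells, or that the 3 libraries of a group came from separate cultures. P-values therefore set the difference between groups against the spread of these libraries, which could be technical spread only.

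When unfolded proteins build up in the ER, 3 membrane sensors, IRE1, PERK and ATF6, start the unfolded protein response. IRE1 splices the messenger of the transcription factor XBP1, ATF6 is cut from the membrane to become a transcription factor itself, and PERK slows translation by phosphorylating eIF2α. XBP1 and ATF6 are known to switch on chaperones, oxidoreductases and ERAD genes, and fibroblasts, which secrete collagen, rely on them.

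Libraries held between 19944571 and 27309291 estimated counts. Of 12 fibroblast markers 9 were tested, and their summed level was 5808 to 5943 CPM with HT-DNA+AOA+Asp, 5328 to 5455 CPM with HT-DNA+AOA, 5762 to 6367 CPM with HT-DNA and 5615 to 5755 CPM in mock libraries. The fibroblast markers Thy1, Dcn and Lum stood at 0.192 CPM or below in every library and were not tested. None of 6 leukocyte markers was tested, and these summed to at most 0.49 CPM. Epithelial markers, 2 of 5 tested, summed to at most 2.43 CPM. Endothelial markers, 2 of 5 tested, summed to at most 4.46 CPM in the libraries with HT-DNA and to 5.37 to 7.09 CPM in mock libraries. The part of these markers in the results below was not tested. In bulk RNA, fewer cells of a type and less RNA per cell cannot be told apart.

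Per length of transcript, the most abundant of the listed genes in mock cells was Hspa5, which encodes the chaperone BiP, at 2126 ± 25.0 TPM (levels scaled for gene length and library, from the authors' lengths, mean ± SD, n = 3). It was followed by Hsp90b1, the ER form of HSP90, at 1926 ± 164 TPM, and its lowest library lay above the highest of Hsp90b1. Next were the oxidoreductase Pdia6 at 1436 ± 4.80 TPM and calreticulin, Calr, at 1336 ± 37.6 TPM, whose libraries did not overlap. The genes of the sensors and their transcription factors were lower. Xbp1 stood at 236 ± 5.04 TPM, Atf6b, the paralog of Atf6, at 83.7 ± 3.11 TPM and Atf6 at 33.6 ± 0.667 TPM. Eif2ak3, which encodes PERK, stood at 24.9 ± 1.10 TPM and Ern1, which encodes IRE1α, at 19.0 ± 1.22 TPM. Ern1 and Wfs1, the lowest of the genes tested, overlapped, and Derl3 stood at 0.232 ± 0.0823 TPM.

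Most listed genes were lower with HT-DNA+AOA than with HT-DNA, and higher again with HT-DNA+AOA+Asp. The listed genes together made up 2.07% to 2.17% of all counts with HT-DNA+AOA+Asp, 1.62% to 1.68% with HT-DNA+AOA, 2.29% to 2.32% with HT-DNA and 2.04% to 2.08% in mock libraries. No library of HT-DNA+AOA reached the share of any other library. With HT-DNA+AOA, 29 of 38 genes fell against HT-DNA, 76.3% of them, where 26.5% of all genes tested fell, and 3 of 38 rose, where 25.5% of all genes did. Herpud1, Syvn1, Sdf2l1, Manf and Dnajc3, 5 of the 38, fell at least 2-fold, where 2.92% of all genes did. The median log2 fold change was -0.32 over the 38 genes and 0.0035 over all genes. With HT-DNA+AOA+Asp, 26 of 38 rose against HT-DNA+AOA, 68.4% of them, where 28.3% of all genes rose, and 4 fell, where 26.4% of all genes did. Herpud1, Syvn1, Eif2ak3 and Sdf2l1, 4 of the 38, rose at least 2-fold, where 3.36% of all genes did. The median was 0.25 over the 38 genes and -0.0046 over all genes. Both comparisons use the same HT-DNA+AOA libraries, so their opposite signs are not independent of each other. Genes are called here at an edgeR adjusted p under 0.05.

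With HT-DNA and no AOA, 17 of 38 genes rose against mock, 44.7% of them, where 21.2% of all genes rose, and 5 fell, where 19.8% of all genes did. The count of 5 became 3 without mock replicate 1, 3 without HT-DNA replicate 1 and 2 without HT-DNA replicate 2. The median log2 fold change was 0.095, against -0.011 over all genes, and the changes were small: the widest were -0.25 for Atf6 and 0.46 for Hspa5. Over all genes, 51.7% of the calls were rises, and 39.3% when libraries were scaled by their totals alone; of the listed genes 17 rose and 7 fell under that scaling. Between HT-DNA+AOA+Asp and HT-DNA, 1 of 38 genes rose, where 10.4% of all genes did, and 9 fell, where 8.15% of all genes did. The 9 were Creld2, Manf, Sdf2l1, Hspa5, Dnajb11, Xbp1, Selenos, Dnajc3 and Ssr1. The calls of Sdf2l1, Xbp1, Selenos, Dnajc3 and Ssr1 were each lost in at least 1 alternative. The count of 9 became 5 without HT-DNA replicate 1, 4 without HT-DNA+AOA+Asp replicate 2 and 5 without HT-DNA+AOA+Asp replicate 3, where 1712, 1802 and 1728 of all genes were called, against 2719 with all libraries, so the 8.15% does not apply to these counts. In a fit of these groups alone 14 fell and 2 rose, Ern1 and Herpud1, where 1553 of 14043 genes tested fell and 1644 rose. In the fit of all libraries the median was -0.084, against 0.0012 over all genes.

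**Figure D1:**
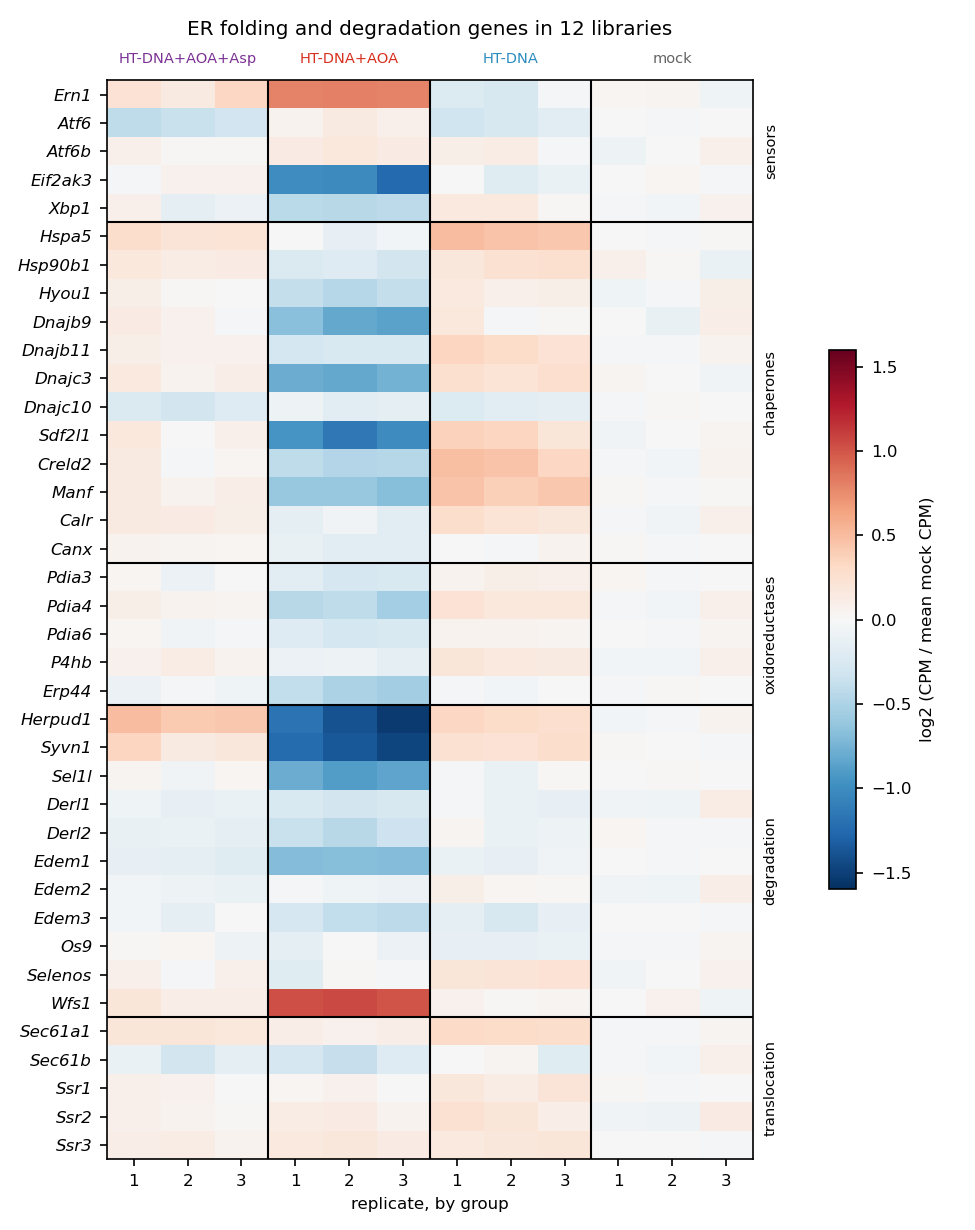
Level of the 38 genes tested in each of the 12 libraries, as log2 of CPM over the mean CPM of the 3 mock libraries. Rows are grouped by role and columns by group; blue is lower and red higher than mock, and the 3 HT-DNA+AOA columns are the darkest in both directions, as in Herpud1 and Wfs1.

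Set against all other libraries, the 3 libraries of HT-DNA+AOA were the lowest of the 12 for 24 of 38 genes, where this held for 19.7% of all genes tested. They were the highest for 4 genes, Ern1, Atf6, Atf6b and Wfs1, where this held for 19.3% of all genes. The 3 libraries of HT-DNA were the highest of the 12 for 15 of 38 genes, where this held for 4.2% of all genes, and the lowest for none (3.71% of all genes). The mock libraries were the lowest for Sec61a1 and Ssr3 and the highest for Dnajc10 and Edem1, against 12.9% and 11.5% of all genes. The HT-DNA+AOA+Asp libraries were the highest for Herpud1 (3.08% of all genes) and the lowest for none of the listed genes (2.14% of all genes).

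**Figure D2:**
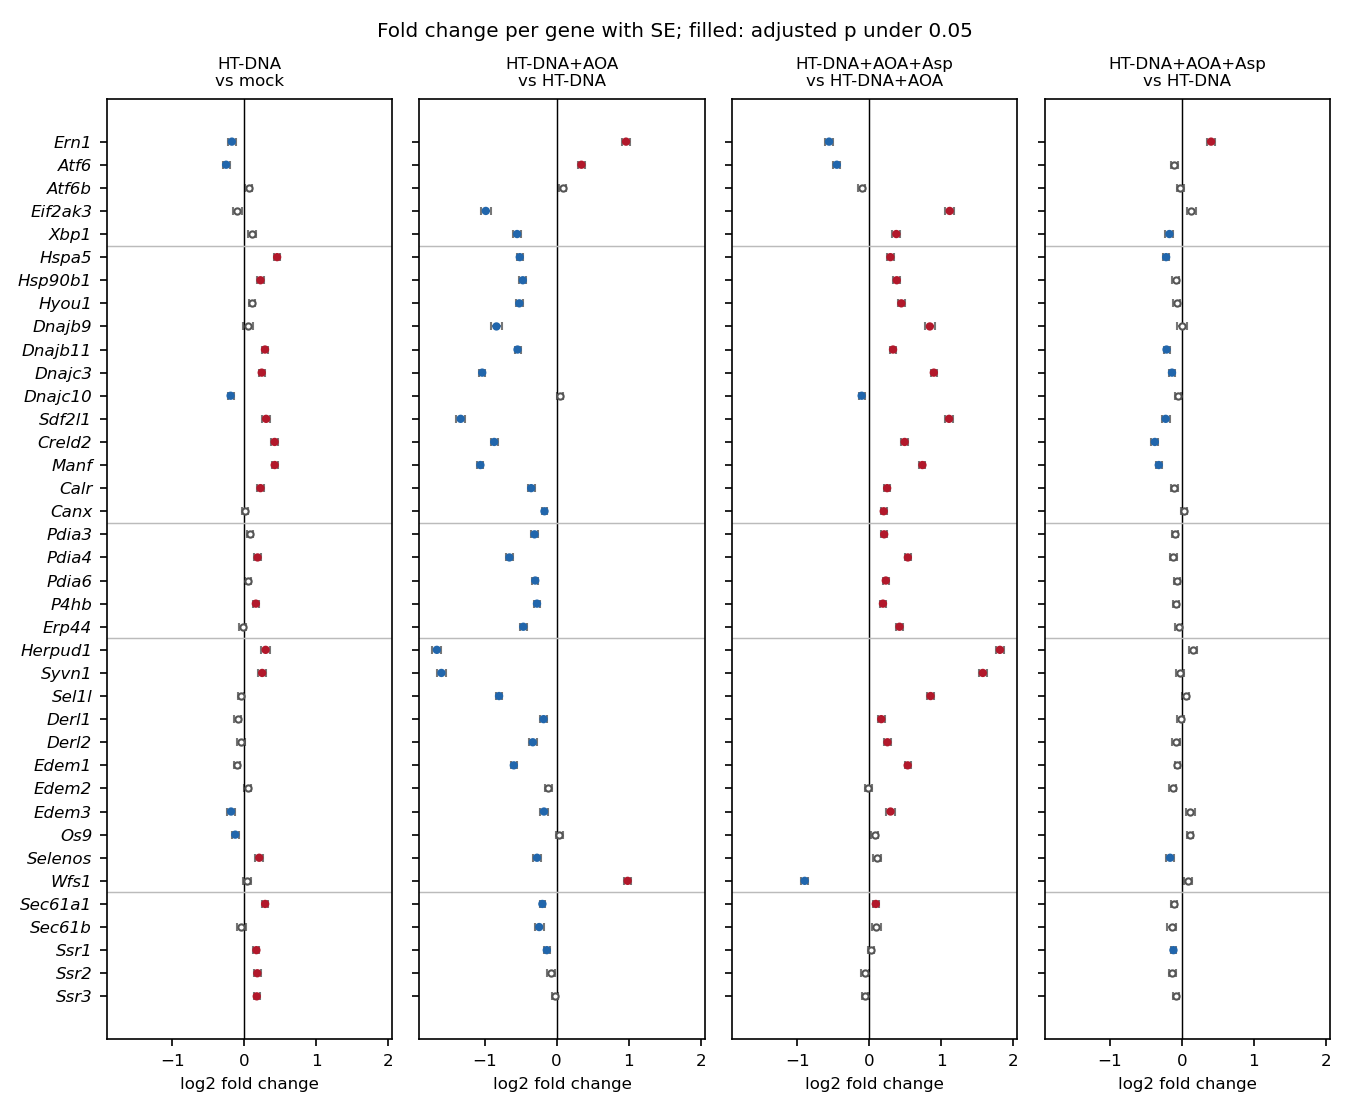
Log2 fold change of each gene with its SE in the 4 comparisons, one panel each, with zero marked by a line. Filled points passed an edgeR adjusted p of 0.05, red for higher and blue for lower; in the second panel 29 filled points lie left of zero, and in the third 26 lie right of it.

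In the promoters of 9 listed genes lay the element through which ATF6 and XBP1 are known to act. Their sequences were picked by outcome, because the 8 of them that were tested all fell with HT-DNA+AOA. So did 29 of the 38 listed genes tested, and a part of the element in the falls was not tested. The windows searched ran from 250 bases before to 50 bases after the start of each gene, in RefSeq sequences of GRCm38.p6, and 33 of the 39 genes had one. The ER stress response element was searched as CCAAT, any 9 bases and CCACG, on both strands. It was present in 9 of 33 listed genes, 27.3%, against 0.119% of all 32851 windows and 0.16% of the 10027 tested genes with a window. Its second form, ATTGG, any 1 base and CCACG, was in 2 of 33, Herpud1 and Dnajb11, against 0.0365% of all windows and 0.11% of the tested genes with a window. TGACGTGG, the unfolded protein response element, was in none of the 33 listed genes, in 0.676% of all windows and in 1.03% of the tested genes with a window. The shared 5 bases CCACG alone were in 26 of 33, 78.8%, against 32.8% of all windows and 51.8% of the tested genes with a window. The list holds genes of the kinds that ATF6 and XBP1 are known to switch on. An excess of their element over all windows therefore goes with how the list was chosen, and is not a result of these data. A match is a description of the letters and not of binding. The stretches below are those of the 8 tested genes with the first form and of Herpud1 with the second, on the strand of the gene, with the element in capitals and 10 bases on either side of it; Hsp90b1 has 2 elements, and in Creld2, Calr and the second of Hsp90b1 the element runs in reverse.
Hspa5: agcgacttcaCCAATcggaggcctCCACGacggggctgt
Hsp90b1: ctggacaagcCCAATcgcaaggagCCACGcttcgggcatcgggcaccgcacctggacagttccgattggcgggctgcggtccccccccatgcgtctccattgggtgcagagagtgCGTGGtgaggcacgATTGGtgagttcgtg
Syvn1: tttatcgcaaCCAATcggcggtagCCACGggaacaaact
Dnajc3: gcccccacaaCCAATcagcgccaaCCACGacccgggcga
Pdia6: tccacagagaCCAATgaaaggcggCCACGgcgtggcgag
Canx: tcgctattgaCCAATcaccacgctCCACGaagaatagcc
Creld2: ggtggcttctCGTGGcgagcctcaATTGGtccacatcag
Calr: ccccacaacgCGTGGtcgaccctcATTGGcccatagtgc
Herpud1: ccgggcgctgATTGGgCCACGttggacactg
These stretches lie at chr2:34772015-34772053 (plus strand) for Hspa5, chr10:86705523-86705666 (minus) for Hsp90b1, chr19:6046522-6046560 (plus) for Syvn1, chr14:118937817-118937855 (plus) for Dnajc3 and chr12:17266481-17266519 (plus) for Pdia6. Those of Canx, Creld2, Calr and Herpud1 lie at chr11:50325790-50325828 (minus), chr15:88819510-88819548 (plus), chr8:84847065-84847103 (minus) and chr8:94386367-94386397 (plus). All stretches shown end before the annotated start, the element of Syvn1 nearest to it, 26 bases before, and that of Hsp90b1 farthest, from 212 bases before. The match of Dnajb11, which is not shown, lies after the start.

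Of the 9 listed genes with the first element, Derl3 was not tested. Of the other 8, all fell with HT-DNA+AOA against HT-DNA, with a median log2 fold change of -0.49, and all rose with HT-DNA+AOA+Asp against HT-DNA+AOA, with a median of 0.34. Of the 24 tested genes with a window that lacks the element, 17 fell and 2 rose with HT-DNA+AOA, with a median of -0.29, and 14 rose and 3 fell with HT-DNA+AOA+Asp, with a median of 0.23. With HT-DNA against mock, 6 of the 8 rose and none fell, and of the 24 others 8 rose and 4 fell. The gene that fell most, Herpud1 at -1.66, carries the second element and not the first. The element also occurred in 8 tested genes outside the list: Acacb, Adcy3, Alg12, Ero1b, Gm20560, Hnrnpa3, Pan2 and Tdrd9. Of these, 4 fell with HT-DNA+AOA against HT-DNA: Ero1b, an ER oxidase, at -0.99, Alg12, a mannosyltransferase of the ER, at -0.79, Acacb, an acetyl-CoA carboxylase, at -0.79, and Pan2, a deadenylase subunit, at -0.27. In HT-DNA cells against mock, where 6 of the 8 listed genes rose, 3 of these 8 fell and 1 rose, with a median of -0.31: Acacb at -1.21, Ero1b at -0.35 and Pan2 at -0.28 fell and Hnrnpa3, an RNA-binding protein, rose at 0.27. With HT-DNA+AOA+Asp against HT-DNA+AOA, 5 of them rose and none fell. Adcy3, Gm20560 and Tdrd9 were not called with HT-DNA+AOA against HT-DNA, at SE of 0.41, 0.31 and 0.29. The listed genes with the element had SE from 0.039 (Canx) to 0.059 (Syvn1) there, so the 2 counts were not equally precise. The window of Alg12 shares 173 bases with that of Creld2 on the opposite strand, so both contain the same element. Of all genes tested, 26.5% fell and 25.5% rose with HT-DNA+AOA against HT-DNA. With HT-DNA+AOA+Asp against HT-DNA+AOA 28.3% of all genes rose and 26.4% fell, and with HT-DNA against mock 21.2% rose and 19.8% fell. The counts of genes with and without the element were made after the groups were known to differ and are given without a test.

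The sensor genes moved in opposite directions: with HT-DNA+AOA against HT-DNA, Ern1 and Atf6 rose, Eif2ak3 and Xbp1 fell, and Atf6b did not pass the test. Ern1, whose product IRE1α is kinase and nuclease in one, had 113, 114 and 113 CPM with HT-DNA+AOA, against 56.0, 54.5 and 63.7 CPM with HT-DNA. It had 76.3, 71.9 and 81.7 CPM with HT-DNA+AOA+Asp, against 66.4, 66.9 and 62.1 CPM in mock libraries. Every HT-DNA+AOA library was above every other, and the HT-DNA+AOA+Asp libraries lay between them and the rest. Ern1 rose by 0.96 (SE 0.058, edgeR adjusted p = 1.01e-11) on the log2 scale with HT-DNA+AOA against HT-DNA, and fell by 0.56 (SE 0.057, edgeR adjusted p = 3.32e-08) with HT-DNA+AOA+Asp against HT-DNA+AOA. It rose by 0.41 (SE 0.059, edgeR adjusted p = 8.26e-05) with HT-DNA+AOA+Asp against HT-DNA, the one listed gene to do so in the fit of all libraries. With HT-DNA against mock it fell by 0.17 (SE 0.059, edgeR adjusted p = 0.0253), a call lost without mock replicate 1 or 2 and without HT-DNA replicate 1 or 2. Eif2ak3, the kinase PERK, had 28.0, 27.5 and 23.6 CPM with HT-DNA+AOA, against 56.0, 48.7 and 51.7 CPM with HT-DNA. It had 54.8, 58.2 and 58.5 CPM with HT-DNA+AOA+Asp, against 55.3, 57.0 and 54.5 CPM in mock libraries. The HT-DNA+AOA libraries lay apart below the other 9, which overlapped. As log2 fold changes, Eif2ak3 fell by 0.98 (SE 0.066, edgeR adjusted p = 6.29e-11) with HT-DNA+AOA against HT-DNA, and rose by 1.12 (SE 0.066, edgeR adjusted p = 8.2e-12) once Asp was added. Xbp1, the transcription factor made from the messenger that IRE1 splices, had 96.5, 95.9 and 97.3 CPM with HT-DNA+AOA, against 146, 145 and 132 CPM with HT-DNA. It had 137, 117 and 122 CPM with HT-DNA+AOA+Asp, against 127, 126 and 137 CPM in mock libraries. Lowest again were the HT-DNA+AOA libraries, and the groups HT-DNA+AOA+Asp, HT-DNA and mock overlapped. Relative to HT-DNA, Xbp1 fell by 0.55 (SE 0.056, edgeR adjusted p = 3.77e-08) with HT-DNA+AOA on the log2 scale, and relative to HT-DNA+AOA it rose by 0.38 (SE 0.056, edgeR adjusted p = 7.4e-06) with HT-DNA+AOA+Asp. It fell by 0.17 (SE 0.055, edgeR adjusted p = 0.0329) with HT-DNA+AOA+Asp against HT-DNA, a call lost without HT-DNA replicate 1 or 2 and without HT-DNA+AOA+Asp replicate 2 or 3, at edgeR adjusted p of 0.128 to 0.191. Counts per gene do not separate its spliced from its unspliced form.

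Atf6, the membrane-bound transcription factor, had 125, 133 and 128 CPM with HT-DNA+AOA, against 96.2, 101 and 107 CPM with HT-DNA. It had 90.6, 94.1 and 97.6 CPM with HT-DNA+AOA+Asp, against 121, 119 and 121 CPM in mock libraries. The HT-DNA+AOA and mock libraries were the high ones, without overlap with those of HT-DNA and HT-DNA+AOA+Asp, which overlapped each other. Atf6 fell by 0.25 (SE 0.047, edgeR adjusted p = 0.000191) with HT-DNA against mock and rose by 0.34 (SE 0.047, edgeR adjusted p = 2.48e-06) with HT-DNA+AOA against HT-DNA. It fell by 0.45 (SE 0.047, edgeR adjusted p = 5.39e-08) with HT-DNA+AOA+Asp against HT-DNA+AOA. Its paralog Atf6b averaged 98.6 ± 2.56 CPM with HT-DNA+AOA+Asp, 106 ± 1.33 CPM with HT-DNA+AOA, 100.1 ± 5.57 CPM with HT-DNA and 95.9 ± 5.35 CPM in mock libraries (SD, n = 3 each). Atf6b passed the test in none of the 4 comparisons, with edgeR adjusted p between 0.0759 and 0.78.

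**Figure D3:**
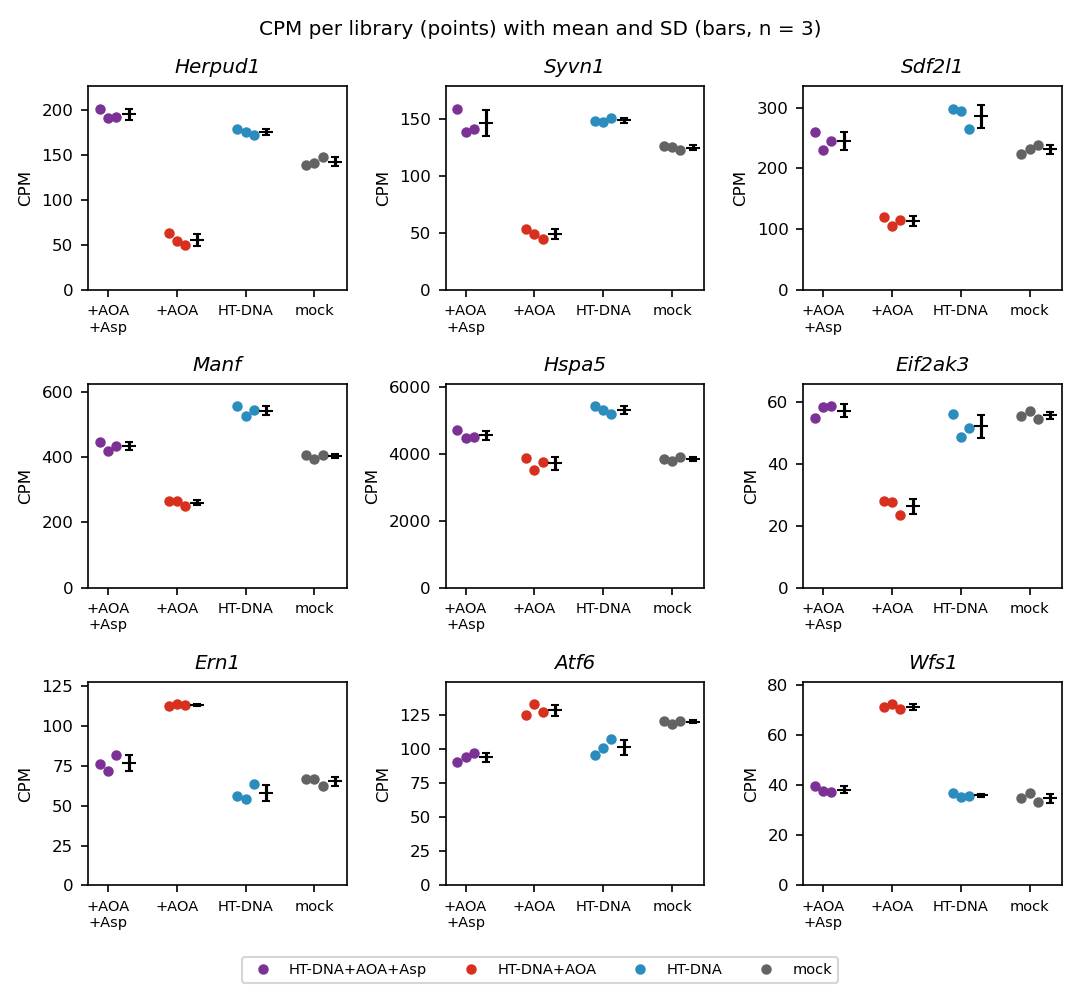
CPM of 9 genes in each library (points) with the mean and SD of each group (bars, n = 3), HT-DNA+AOA+Asp at the left and mock at the right, on linear axes from 0. In Herpud1, Syvn1, Sdf2l1, Manf and Eif2ak3 the HT-DNA+AOA points lie below all others, and in Ern1, Atf6 and Wfs1 above them; in Hspa5 they overlap the mock points.

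Nearly all chaperones fell: with HT-DNA+AOA against HT-DNA, 11 of 12 fell and none rose, and with HT-DNA+AOA+Asp against HT-DNA+AOA 11 rose and 1 fell. Of all genes tested, 26.5% fell and 25.5% rose in the first comparison, and 28.3% rose and 26.4% fell in the second. Hspa5, the main ER chaperone BiP, had 3892, 3526 and 3754 CPM with HT-DNA+AOA, against 5429, 5315 and 5191 CPM with HT-DNA. It had 4710.4, 4469 and 4514 CPM with HT-DNA+AOA+Asp, against 3864, 3796 and 3927 CPM in mock libraries. The HT-DNA libraries were the highest and the HT-DNA+AOA+Asp libraries next, while those of HT-DNA+AOA overlapped mock. Hspa5 fell by 0.51 (SE 0.045, edgeR adjusted p = 3.51e-09) on the log2 scale with HT-DNA+AOA against HT-DNA, and rose by 0.29 (SE 0.045, edgeR adjusted p = 8.78e-06) with HT-DNA+AOA+Asp against HT-DNA+AOA. It rose by 0.46 (SE 0.045, edgeR adjusted p = 3.74e-08) with HT-DNA against mock, and fell by 0.22 (SE 0.045, edgeR adjusted p = 0.00169) with HT-DNA+AOA+Asp against HT-DNA. Sdf2l1, which works with the cochaperone Dnajb11 on BiP, had 121, 105 and 115 CPM with HT-DNA+AOA, against 298, 295 and 264 CPM with HT-DNA. It had 259, 229.8 and 245 CPM with HT-DNA+AOA+Asp, against 223, 231 and 239 CPM in mock libraries. The HT-DNA+AOA libraries were at 121 CPM or below and no other library was below 223 CPM. As log2 fold changes, Sdf2l1 fell by 1.33 (SE 0.058, edgeR adjusted p = 1.97e-13) with HT-DNA+AOA against HT-DNA, and rose by 1.11 (SE 0.058, edgeR adjusted p = 3.48e-12) once Asp was added. It rose by 0.31 (SE 0.056, edgeR adjusted p = 0.000164) with HT-DNA against mock. Manf, a small ER protein that binds BiP and can be secreted, had 264, 265 and 251 CPM with HT-DNA+AOA, against 555, 527 and 543 CPM with HT-DNA. It had 447, 419 and 434 CPM with HT-DNA+AOA+Asp, against 407, 395 and 407 CPM in mock libraries. The HT-DNA libraries were the highest, then HT-DNA+AOA+Asp, then mock, then HT-DNA+AOA, with no overlap between groups. Relative to HT-DNA, Manf fell by 1.06 (SE 0.041, edgeR adjusted p = 1.07e-14) with HT-DNA+AOA on the log2 scale, and relative to HT-DNA+AOA it rose by 0.74 (SE 0.041, edgeR adjusted p = 3.16e-12) with HT-DNA+AOA+Asp. It rose by 0.43 (SE 0.041, edgeR adjusted p = 2.98e-08) with HT-DNA against mock, and fell by 0.32 (SE 0.041, edgeR adjusted p = 2.06e-05) with HT-DNA+AOA+Asp against HT-DNA.

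Dnajc3, the cochaperone P58IPK, had 84.5, 83.0 and 86.8 CPM with HT-DNA+AOA, against 174, 170.1 and 176 CPM with HT-DNA. It had 164, 152 and 158 CPM with HT-DNA+AOA+Asp, against 151, 147 and 141 CPM in mock libraries. The order of the groups was that of Manf, again with no overlap. Dnajc3 fell by 1.03 (SE 0.044, edgeR adjusted p = 4.51e-14) on the log2 scale with HT-DNA+AOA against HT-DNA, and rose by 0.90 (SE 0.044, edgeR adjusted p = 4.6e-13) with HT-DNA+AOA+Asp against HT-DNA+AOA. It rose by 0.25 (SE 0.043, edgeR adjusted p = 7.8e-05) with HT-DNA against mock. Creld2, an ER protein with EGF-like domains, had 214, 206 and 208 CPM with HT-DNA+AOA, against 399, 390.1 and 357 CPM with HT-DNA. It had 314, 279 and 289.7 CPM with HT-DNA+AOA+Asp, against 282, 275 and 297 CPM in mock libraries. The HT-DNA libraries stood above all others, and those of HT-DNA+AOA+Asp and mock overlapped. As log2 fold changes, Creld2 fell by 0.87 (SE 0.050, edgeR adjusted p = 5.38e-12) with HT-DNA+AOA against HT-DNA, and rose by 0.49 (SE 0.050, edgeR adjusted p = 3.34e-08) once Asp was added. It rose by 0.43 (SE 0.049, edgeR adjusted p = 4.59e-07) with HT-DNA against mock and fell by 0.38 (SE 0.050, edgeR adjusted p = 3.09e-05) with HT-DNA+AOA+Asp against HT-DNA, the largest drop of a listed gene in that comparison. Dnajb9, the cochaperone ERdj4, which holds IRE1 in check, had 28.1, 25.4 and 24.7 CPM with HT-DNA+AOA, against 50.3, 43.6 and 45.4 CPM with HT-DNA. It had 48.9, 46.9 and 44.1 CPM with HT-DNA+AOA+Asp, against 45.0, 40.9 and 48.0 CPM in mock libraries. The HT-DNA+AOA libraries lay at or below 28.1 CPM, and the other 9 overlapped between 40.9 and 50.3 CPM. Relative to HT-DNA, Dnajb9 fell by 0.84 (SE 0.072, edgeR adjusted p = 2.94e-09) with HT-DNA+AOA on the log2 scale, and relative to HT-DNA+AOA it rose by 0.84 (SE 0.072, edgeR adjusted p = 2.48e-09) with HT-DNA+AOA+Asp.

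A further 5 chaperones fell with HT-DNA+AOA against HT-DNA. Hsp90b1 averaged 2964 ± 51.5 CPM with HT-DNA+AOA+Asp, 2274 ± 70.6 CPM with HT-DNA+AOA, 3150.2 ± 94.8 CPM with HT-DNA and 2689 ± 172 CPM in mock libraries (SD, n = 3 each, here and for the means that follow). It fell by 0.47 (SE 0.047, edgeR adjusted p = 3.1e-08) with HT-DNA+AOA against HT-DNA, without overlap. Hyou1, the exchange factor of BiP, averaged 955 ± 32.9 CPM with HT-DNA+AOA+Asp, 701 ± 19.8 CPM with HT-DNA+AOA, 1004 ± 26.3 CPM with HT-DNA and 929.2 ± 55.9 CPM in mock libraries. It fell by 0.52 (SE 0.046, edgeR adjusted p = 5.2e-09) with HT-DNA+AOA against HT-DNA. Dnajb11, the cochaperone ERdj3, whose promoter holds the second form of the element, averaged 328 ± 3.79 CPM with HT-DNA+AOA+Asp, 261 ± 3.60 CPM with HT-DNA+AOA, 379.9 ± 14.4 CPM with HT-DNA and 310.5 ± 11.9 CPM in mock libraries. It fell by 0.54 (SE 0.042, edgeR adjusted p = 4.86e-10) with HT-DNA+AOA against HT-DNA. Its match to the second form, not shown above, lies after the annotated start, at bases 8 to 18 counted from it. The lectin chaperones, which hold glycoproteins while they fold, moved least of the chaperones that fell. Calr averaged 1572 ± 23.4 CPM with HT-DNA+AOA+Asp, 1324 ± 58.8 CPM with HT-DNA+AOA, 1692 ± 64.8 CPM with HT-DNA and 1445 ± 75.9 CPM in mock libraries, and fell by 0.35 on the log2 scale with HT-DNA+AOA. Its membrane-bound relative calnexin, Canx, averaged 1050.4 ± 8.45 CPM with HT-DNA+AOA+Asp, 914 ± 19.5 CPM with HT-DNA+AOA, 1027 ± 25.4 CPM with HT-DNA and 1017 ± 20.1 CPM in mock libraries, and fell by 0.17 with HT-DNA+AOA. When Asp was added to AOA these 5 rose by 0.20 (Canx) to 0.45 (Hyou1). The exception among the chaperones was Dnajc10, the disulfide reductase ERdj5, with 141, 132 and 133 CPM with HT-DNA+AOA, against 127, 131 and 133 CPM with HT-DNA. It had 126, 122 and 129 CPM with HT-DNA+AOA+Asp, against 145, 151 and 149.8 CPM in mock libraries. The mock libraries were the highest for Dnajc10, those of HT-DNA overlapped both other groups, and those of HT-DNA+AOA lay above those of HT-DNA+AOA+Asp. It fell by 0.19 (SE 0.043, edgeR adjusted p = 0.00119) with HT-DNA against mock, and had a log2 fold change of 0.050 (SE 0.043, edgeR adjusted p = 0.346) with HT-DNA+AOA against HT-DNA. It fell by 0.11 (SE 0.043, edgeR adjusted p = 0.0427) with HT-DNA+AOA+Asp against HT-DNA+AOA, a call that was lost in 6 of the 12 alternatives tried.

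The chaperones also moved in the other comparisons. With HT-DNA against mock, 8 of 12 rose, by 0.23 (Calr) to 0.46 (Hspa5), and Dnajc10 fell, where 21.2% of all genes rose and 19.8% fell. Between HT-DNA+AOA+Asp and HT-DNA, 6 of 12 fell, by 0.14 (Dnajc3) to 0.38 (Creld2), and none rose, where 8.15% of all genes fell and 10.4% rose. The call of Dnajc3 was lost in 5 of 12 alternatives, and that of Sdf2l1 without HT-DNA+AOA+Asp replicate 2. For Creld2, Manf, Sdf2l1, Hspa5 and Dnajb11 the libraries of HT-DNA+AOA+Asp lay below those of HT-DNA without overlap, and above those of HT-DNA+AOA. The same held for Dnajc3, and for Hsp90b1 and Calr, which were not called between HT-DNA+AOA+Asp and HT-DNA. The share of all genes without such overlap is not given here, so this is a description only.

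All 5 genes counted as oxidoreductases, which form and rearrange disulfide bonds, fell with HT-DNA+AOA against HT-DNA, and all 5 rose with HT-DNA+AOA+Asp against HT-DNA+AOA. Of all genes tested, 26.5% fell in the first comparison and 28.3% rose in the second. Dnajc10, the disulfide reductase counted with the chaperones, was not called in the first and fell by 0.11 in the second, a call lost in 6 alternatives. The largest change of the 5 was that of Pdia4, a protein disulfide isomerase, which had 716, 734 and 667 CPM with HT-DNA+AOA, against 1146, 1093 and 1097 CPM with HT-DNA. It had 1046, 1015 and 1009 CPM with HT-DNA+AOA+Asp, against 952, 943 and 1032 CPM in mock libraries. The HT-DNA+AOA libraries lay at 734 CPM or below and all others at 943 CPM or above. Pdia4 fell by 0.66 (SE 0.046, edgeR adjusted p = 1.3e-10) on the log2 scale with HT-DNA+AOA against HT-DNA, and rose by 0.54 (SE 0.046, edgeR adjusted p = 2.51e-09) with HT-DNA+AOA+Asp against HT-DNA+AOA. Erp44, which retrieves client proteins from the Golgi to the ER, fell by 0.46 (SE 0.049, edgeR adjusted p = 6.98e-08) with HT-DNA+AOA against HT-DNA. Erp44 averaged 65.8 ± 1.23 CPM with HT-DNA+AOA+Asp, 49.2 ± 2.81 CPM with HT-DNA+AOA, 67.8 ± 1.11 CPM with HT-DNA and 68.7 ± 1.07 CPM in mock libraries. The 3 most abundant of the group moved less. Pdia3, the isomerase that serves glycoproteins, averaged 1469 ± 63.9 CPM with HT-DNA+AOA+Asp, 1273 ± 47.2 CPM with HT-DNA+AOA, 1575 ± 23.4 CPM with HT-DNA and 1491 ± 23.0 CPM in mock libraries, and fell by 0.31 with HT-DNA+AOA against HT-DNA. Pdia6 averaged 1494 ± 49.4 CPM with HT-DNA+AOA+Asp, 1274 ± 35.7 CPM with HT-DNA+AOA, 1565 ± 8.30 CPM with HT-DNA and 1509.8 ± 36.2 CPM in mock libraries, and fell by 0.30. P4hb, the classical protein disulfide isomerase, averaged 1299 ± 31.3 CPM with HT-DNA+AOA+Asp, 1139 ± 26.5 CPM with HT-DNA+AOA, 1376 ± 27.4 CPM with HT-DNA and 1228 ± 59.1 CPM in mock libraries, and fell by 0.27. For each of the 3, every HT-DNA+AOA library lay below every other. When Asp was added, these 4 rose by 0.19 (P4hb) to 0.42 (Erp44). With HT-DNA against mock Pdia4 and P4hb rose, by 0.19 and 0.16, and with HT-DNA+AOA+Asp against HT-DNA none of the 5 passed the test.

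The largest changes of all listed genes were in the degradation genes. Of 11 tested, 8 fell, 1 rose and 2 did not pass the test with HT-DNA+AOA against HT-DNA, and 7 rose, 1 fell and 3 did not pass with HT-DNA+AOA+Asp against HT-DNA+AOA. Of all genes tested, 26.5% fell and 25.5% rose in the first comparison, and 28.3% rose and 26.4% fell in the second. Herpud1, an ER membrane protein that organises the ubiquitin ligase complex of the ER, had 63.0, 54.3 and 49.6 CPM with HT-DNA+AOA, against 179.7, 176 and 172 CPM with HT-DNA. It had 202, 191 and 193 CPM with HT-DNA+AOA+Asp, against 139, 141 and 149 CPM in mock libraries. The HT-DNA+AOA libraries stood far below all others, and those of HT-DNA+AOA+Asp stood above every other library. As log2 fold changes, Herpud1 fell by 1.66 (SE 0.061, edgeR adjusted p = 1.32e-14) with HT-DNA+AOA against HT-DNA, and rose by 1.82 (SE 0.061, edgeR adjusted p = 4.23e-15) once Asp was added. It had a log2 fold change of 0.15 (SE 0.057, edgeR adjusted p = 0.0727) with HT-DNA+AOA+Asp against HT-DNA, without overlap of the libraries. Syvn1, the ubiquitin ligase HRD1 itself, had 53.2, 48.8 and 44.8 CPM with HT-DNA+AOA, against 148, 147 and 151 CPM with HT-DNA. It had 159, 138 and 141 CPM with HT-DNA+AOA+Asp, against 126, 125 and 122 CPM in mock libraries. Lowest were the HT-DNA+AOA libraries, then mock, and those of HT-DNA+AOA+Asp and HT-DNA overlapped. Relative to HT-DNA, Syvn1 fell by 1.60 (SE 0.059, edgeR adjusted p = 3.48e-15) with HT-DNA+AOA on the log2 scale, and relative to HT-DNA+AOA it rose by 1.58 (SE 0.059, edgeR adjusted p = 5.62e-15) with HT-DNA+AOA+Asp. It rose by 0.25 (SE 0.055, edgeR adjusted p = 0.00076) with HT-DNA against mock. Sel1l, the adaptor of HRD1, had 134, 125 and 129.8 CPM with HT-DNA+AOA, against 227, 216 and 235 CPM with HT-DNA. It had 241, 224 and 237 CPM with HT-DNA+AOA+Asp, against 231, 235 and 231 CPM in mock libraries. Again the HT-DNA+AOA libraries stood apart and the other 9 overlapped. Sel1l fell by 0.80 (SE 0.044, edgeR adjusted p = 2.61e-12) on the log2 scale with HT-DNA+AOA against HT-DNA, and rose by 0.85 (SE 0.044, edgeR adjusted p = 1.02e-12) with HT-DNA+AOA+Asp against HT-DNA+AOA.

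Wfs1, the ER membrane protein wolframin, moved the other way and had 71.3, 72.5 and 70.4 CPM with HT-DNA+AOA, against 36.8, 35.3 and 36.0 CPM with HT-DNA. It had 39.9, 37.6 and 37.5 CPM with HT-DNA+AOA+Asp, against 34.8, 36.8 and 33.2 CPM in mock libraries. Every HT-DNA+AOA library stood above all others, which lay between 33.2 and 39.9 CPM. As log2 fold changes, Wfs1 rose by 0.99 (SE 0.052, edgeR adjusted p = 1.3e-12) with HT-DNA+AOA against HT-DNA, and fell by 0.90 (SE 0.052, edgeR adjusted p = 6.47e-12) once Asp was added. Among the mannosidase-like proteins that mark glycoproteins for degradation, Edem1 had 101, 101 and 101 CPM with HT-DNA+AOA, against 152, 149 and 156 CPM with HT-DNA. It had 148, 147 and 143 CPM with HT-DNA+AOA+Asp, against 164, 161 and 164 CPM in mock libraries, and the 4 groups did not overlap, with mock the highest. With HT-DNA against mock it was nevertheless not called. Edem1 fell by 0.60 (SE 0.040, edgeR adjusted p = 5.77e-11) with HT-DNA+AOA against HT-DNA and rose by 0.53 (SE 0.040, edgeR adjusted p = 2.92e-10) with HT-DNA+AOA+Asp against HT-DNA+AOA. Its relative Edem3 averaged 49.3 ± 2.50 CPM with HT-DNA+AOA+Asp, 40.3 ± 2.31 CPM with HT-DNA+AOA, 45.5 ± 2.11 CPM with HT-DNA and 51.5 ± 0.449 CPM in mock libraries. It fell by 0.18 (SE 0.057, edgeR adjusted p = 0.0136) with HT-DNA+AOA against HT-DNA, a call that was lost without replicate 2 and without replicate 3 of that group. Edem2 passed the test in no comparison, with 58.4 to 67.5 CPM in all 12 libraries.

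The derlins are channel proteins of the degradation route. Derl1 averaged 162 ± 3.73 CPM with HT-DNA+AOA+Asp, 145 ± 2.85 CPM with HT-DNA+AOA, 164 ± 6.02 CPM with HT-DNA and 174 ± 13.1 CPM in mock libraries. Derl2 averaged 49.1 ± 0.521 CPM with HT-DNA+AOA+Asp, 41.3 ± 1.71 CPM with HT-DNA+AOA, 51.9 ± 2.87 CPM with HT-DNA and 53.4 ± 1.17 CPM in mock libraries. Both were lowest in HT-DNA+AOA: Derl1 fell by 0.18 and Derl2 by 0.33 with HT-DNA+AOA against HT-DNA, and they rose by 0.17 and 0.25 with HT-DNA+AOA+Asp against HT-DNA+AOA. Selenos, a selenoprotein that links the derlins to the extraction ATPase, averaged 106 ± 3.96 CPM with HT-DNA+AOA+Asp, 98.4 ± 7.52 CPM with HT-DNA+AOA, 119 ± 1.12 CPM with HT-DNA and 103 ± 4.38 CPM in mock libraries. It rose by 0.21 (SE 0.052, edgeR adjusted p = 0.00228) with HT-DNA against mock and fell by 0.27 (SE 0.052, edgeR adjusted p = 0.000143) with HT-DNA+AOA against HT-DNA. It had a log2 fold change of 0.11 (SE 0.052, edgeR adjusted p = 0.086) with HT-DNA+AOA+Asp against HT-DNA+AOA. The HT-DNA libraries were the highest for Selenos. Os9, a lectin that brings glycoproteins to the ligase, averaged 152 ± 6.48 CPM with HT-DNA+AOA+Asp, 144 ± 7.58 CPM with HT-DNA+AOA, 140.3 ± 1.58 CPM with HT-DNA and 153 ± 4.67 CPM in mock libraries. It fell by 0.12 with HT-DNA against mock, a call lost in 6 of 12 alternatives, and passed in no other comparison. Against mock, HT-DNA cells showed a rise of Herpud1, Syvn1 and Selenos and a fall of Edem3 and Os9. The fall of Edem3 was not called without HT-DNA replicate 2. Of the degradation genes tested, 27.3% rose and 18.2% fell in that comparison, near the 21.2% and 19.8% of all genes. With HT-DNA+AOA+Asp against HT-DNA, Selenos was the one degradation gene that passed, and fell by 0.16, a call lost without any 1 of the 6 libraries compared. Derl1, Derl2 and Derl3, like Edem1, Edem2 and Edem3, are related genes, and how the authors' counting split reads between relatives is not given in the sources used here.

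Of the 5 translocation genes, which bring new proteins into the ER, 4 rose with HT-DNA against mock, 3 fell with HT-DNA+AOA against HT-DNA, and 1 rose with HT-DNA+AOA+Asp against HT-DNA+AOA. Of all genes tested, 21.2% rose in the first of these comparisons, 26.5% fell in the second and 28.3% rose in the third. The 4 that rose against mock were Sec61a1, the main channel subunit, by 0.29, and Ssr1, Ssr2 and Ssr3, subunits of the translocon-associated complex, by 0.17, 0.18 and 0.18; the call of Ssr2 was lost without mock replicate 2. Sec61a1 had 537, 529.8 and 527 CPM with HT-DNA, against 425, 429 and 446 CPM in mock libraries. It had 495, 498 and 488 CPM with HT-DNA+AOA+Asp, against 467, 456 and 467 CPM with HT-DNA+AOA. All libraries with HT-DNA were above all mock libraries, and within them the order was HT-DNA, HT-DNA+AOA+Asp and HT-DNA+AOA. With HT-DNA+AOA against HT-DNA, Sec61a1 fell by 0.20 (SE 0.038, edgeR adjusted p = 0.000142), Sec61b, the small channel subunit, fell by 0.24 and Ssr1 by 0.14. Once Asp was added to AOA, Sec61a1 rose by 0.091 (SE 0.038, edgeR adjusted p = 0.0472), a call lost in 9 of 12 alternatives, and no other translocation gene passed. Sec61b averaged 89.2 ± 5.90 CPM with HT-DNA+AOA+Asp, 83.3 ± 4.87 CPM with HT-DNA+AOA, 98.3 ± 8.52 CPM with HT-DNA and 101 ± 4.68 CPM in mock libraries. Ssr1 averaged 256 ± 7.06 CPM with HT-DNA+AOA+Asp, 253 ± 5.40 CPM with HT-DNA+AOA, 278 ± 8.82 CPM with HT-DNA and 247 ± 3.38 CPM in mock libraries, and Ssr2 averaged 244 ± 5.73 CPM with HT-DNA+AOA+Asp, 254 ± 6.91 CPM with HT-DNA+AOA, 268 ± 13.9 CPM with HT-DNA and 236 ± 19.9 CPM in mock libraries. For both, the HT-DNA mean was the highest of the 4. Ssr3 had 242, 246 and 238 CPM with HT-DNA+AOA, against 242, 246 and 249 CPM with HT-DNA. These overlapped, and all 9 libraries with HT-DNA stood above the mock libraries, at 219, 219 and 215 CPM. With HT-DNA+AOA+Asp against HT-DNA, Ssr1 fell by 0.12, a call lost in 7 of 12 alternatives, and no other translocation gene passed.

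Genes of the same routes that are not on the list were followed through 6 further lists, which share no gene with it. Of 35 tested genes of ER folding outside the list, 10 fell and 6 rose with HT-DNA+AOA against HT-DNA, with a median log2 fold change of -0.069. These are 28.6% and 17.1%, where 26.5% of all genes fell and 25.5% rose, so the share that fell lay near that of all genes. Fkbp14, a prolyl isomerase, averaged 2.69 ± 0.548 CPM with HT-DNA+AOA and 5.91 ± 0.315 CPM with HT-DNA (SD, n = 3 each) and fell by 1.14 (SE 0.14, edgeR adjusted p = 4.24e-07); Ero1b fell by 0.99 (SE 0.071, edgeR adjusted p = 1.61e-10). Of 33 other ERAD genes 7 fell and 8 rose, 21.2% and 24.2%, both below the shares of all genes, with a median of 0.015. Erlin1, a lipid raft protein of the ER that binds the receptor of inositol trisphosphate, rose by 1.12 (SE 0.043, edgeR adjusted p = 7.58e-15), and Nploc4, a cofactor of the extraction ATPase, fell by 0.69 (SE 0.039, edgeR adjusted p = 4.23e-12). Of 36 genes of translocation, signal peptidase and glycosylation, 15 fell and 9 rose, 41.7% and 25%, against the same 26.5% and 25.5% of all genes, with a median of -0.086. Stt3b, a catalytic subunit of the oligosaccharyltransferase, fell by 0.50 and Tram1, a protein beside the channel, by 0.49.

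Genes of transport from the ER to the Golgi also fell for the most part: 21 of 30 fell and 2 rose with HT-DNA+AOA against HT-DNA, 70% and 6.67%, where 26.5% of all genes fell and 25.5% rose, with a median of -0.23. Arfgap3, which acts on COPI coats, fell by 1.19 (SE 0.090, edgeR adjusted p = 9.99e-10), and Sec24d, a COPII coat protein, fell by 0.81 (SE 0.046, edgeR adjusted p = 3.55e-12). Of these 30, 20 rose and 3 fell with HT-DNA+AOA+Asp against HT-DNA+AOA, 66.7% and 10%, where 28.3% of all genes rose and 26.4% fell, with a median of 0.17. Arfgap3 rose by 1.37 and Sec24c, another COPII coat protein, by 0.66. The list named for the PERK branch and its target CHOP also holds Eif2ak1, Eif2ak2 and Eif2ak4, which encode other kinases of eIF2α. Eif2ak3, the gene of PERK itself, is not in it and fell by 0.98 with HT-DNA+AOA against HT-DNA. In this list more rose than fell in that comparison: 12 of 18 rose, 66.7% of them, where 25.5% of all genes rose, with a median of 0.46. The 5 that fell, 27.8%, lay near the 26.5% of all genes. Ppp1r15a, the phosphatase subunit GADD34, averaged 315 ± 53.3 CPM with HT-DNA+AOA and 71.8 ± 5.68 CPM with HT-DNA (SD, n = 3 each) and rose by 2.13 (SE 0.12, edgeR adjusted p = 1.12e-07). Cebpb, a transcription factor that pairs with CHOP, spread widely, with 193 ± 88.1 CPM with HT-DNA+AOA and 49.5 ± 8.15 CPM with HT-DNA (SD, n = 3 each), and rose by 1.97 (SE 0.36, edgeR adjusted p = 0.00159). Ddit3, which encodes CHOP and was picked for this comparison after its values were seen, rose by 1.87. Atf4, the transcription factor upstream of CHOP and chosen likewise, fell by 0.19 (SE 0.046, edgeR adjusted p = 0.00124). When Asp was added, 10 of the 18 fell and 4 rose, 55.6% and 22.2%, where 26.4% of all genes fell and 28.3% rose, with a median of -0.22, Cebpb at -2.40 and Ppp1r15a at -1.61.

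Of 20 partners of the ATF6 and IRE1 branches, 7 fell and 4 rose with HT-DNA+AOA against HT-DNA, 35% and 20%, where 26.5% of all genes fell and 25.5% rose, with a median of -0.017. Map3k5, a stress kinase downstream of IRE1, rose by 1.20 (SE 0.063, edgeR adjusted p = 1.04e-12), and Creb3l2, a membrane-bound transcription factor related to ATF6, fell by 1.09 (SE 0.053, edgeR adjusted p = 3.04e-13). With HT-DNA+AOA+Asp against HT-DNA+AOA, 7 of these 20 rose and 5 fell, 35% and 25%, where 28.3% of all genes rose and 26.4% fell. Of the other ER folding genes 9 rose and 6 fell, 25.7% and 17.1%. Of the other ERAD genes 11 rose and 8 fell, 33.3% and 24.2%, and of the other translocation genes 13 rose and 10 fell, 36.1% and 27.8%. In HT-DNA cells, 14 of 30 transport genes rose against mock and 5 fell, 46.7% and 16.7%, and 11 of 36 other translocation genes rose and 2 fell, 30.6% and 5.56%, where 21.2% of all genes rose and 19.8% fell. Among those that rose were Arf4, a small GTPase of the Golgi, at 0.50, and Srprb, a subunit of the signal recognition particle receptor, at 0.36. In the same comparison 6 of 18 genes of the PERK branch list fell and 2 rose, 33.3% and 11.1%, with Ddit3 at -0.51 and Bbc3, a cell death gene, at -0.66. Between HT-DNA+AOA+Asp and HT-DNA, 7 of the 18 rose and 1 fell, 38.9% and 5.56%, where 10.4% of all genes rose and 8.15% fell, with Ddit3 at 0.82 and Ppp1r15a at 0.53. No test compared one list with another.

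**Figure D4:**
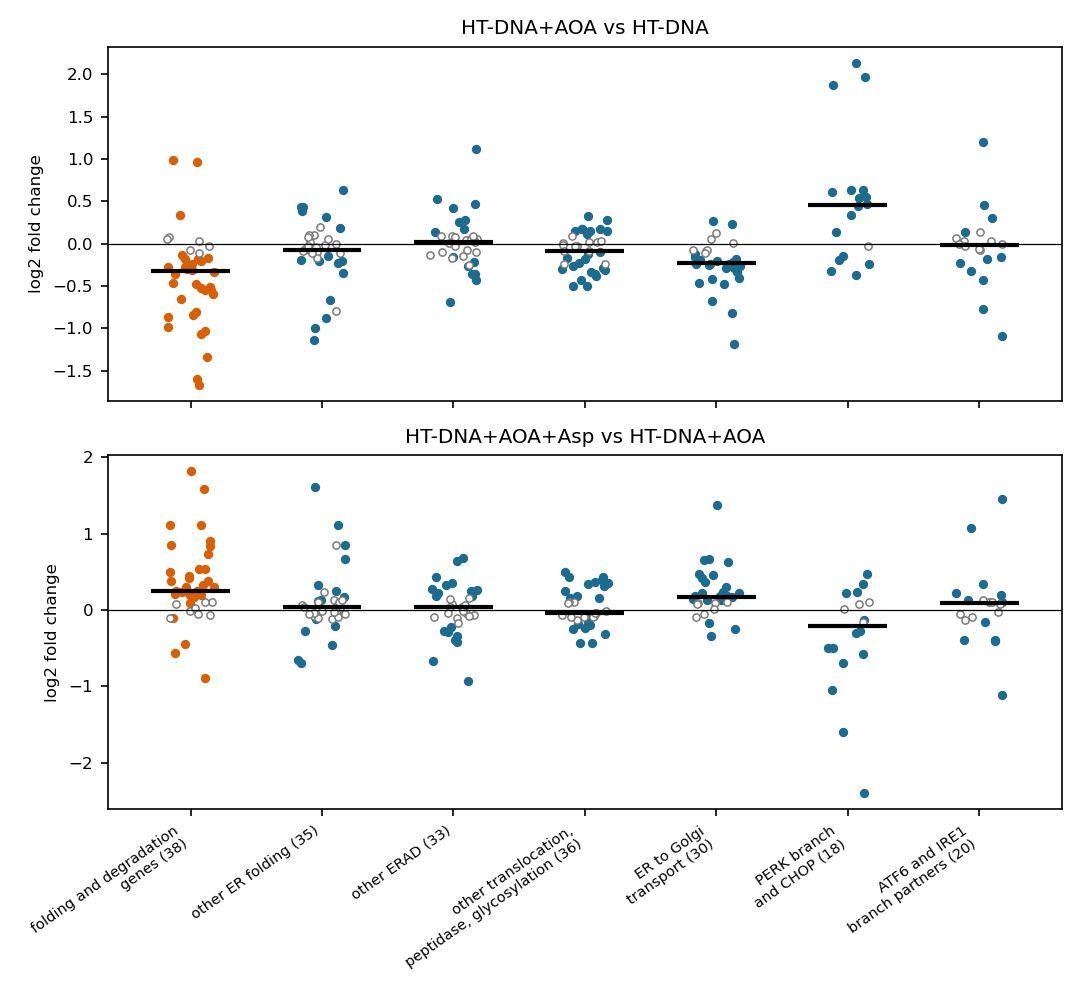
Log2 fold change of every tested gene of the list described here (left, 38 genes) and of the 6 further lists, with HT-DNA+AOA against HT-DNA above and HT-DNA+AOA+Asp against HT-DNA+AOA below. Points are genes, filled where the edgeR adjusted p was under 0.05, and bars are medians; the medians of the first list were -0.32 above and 0.25 below, and those of the PERK branch list 0.46 and -0.22.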

How the data were processed

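The authors deposited estimated counts per gene and library, not normalized, beside a length in bases for each entry, per the file headers. RNA was extracted with TRIzol, per the labels' protocols. Which aligner, counter, strand setting and genome build were used is not given in the sources used here. Where genes overlap on opposite strands, their counts may be uncertain. The estimated counts were rounded. The filter filterByExpr (edgeR 4.0.16, R 4.3.3; at least 10 counts, 15 in total) kept 14694 genes, and TMM factors scaled the libraries, also for CPM. A single fit of the 12 libraries, 1 term per group and 8 residual degrees of freedom, gave robust quasi-likelihood tests in edgeR, with Benjamini-Hochberg adjustment over the 14694 genes. Calls are at an adjusted p under 0.05, and the SE is the log2 fold change over the square root of F. The procedure was tested on simulated data in which far fewer genes changed than were called here, as many up as down. That setting cannot show how the scaling behaves when many genes change.

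The listed genes and the 6 further lists were chosen with earlier results of these data known, so their counts are descriptions, set beside the share of all genes called. From the further lists, up to 2 genes per comparison were open to naming, those with the largest change among called genes with 5 CPM or more in the higher group and no overlap of the groups; all 39 listed genes are accounted for. Where a symbol stood on several entries, the entry with most counts was used. Replicates differed by more than sampling noise (chi-square per degree of freedom 2.15 to 7.96). Replicate 3 stood apart in 2 groups. In mock libraries replicates 1 and 2 gave 2.15, and pairs with replicate 3 gave 6.95 and 6.51. With HT-DNA the values were 2.69, and 7.56 and 5.65. Alternatives were DESeq2 1.42.0, scaling by library totals, no filter, a filter of 1 CPM, a fit of the 2 groups compared, a block for the replicate number, and leaving out each replicate. TPM were computed from the deposited gene lengths. Promoter windows came from RefSeq (GRCm38.p6); protein sequences were not analysed here.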

Additional observations from a re-analysis of the deposited data

How the results depend on the processing

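Of 94 called results of listed genes, none changed direction in the 1128 alternatives tried, and 52 alternatives, in 12 of the results, lost the call. These were Os9, Ern1, Ssr2 and Edem3 with HT-DNA against mock, Edem3 with HT-DNA+AOA against HT-DNA, Dnajc10 and Sec61a1 with HT-DNA+AOA+Asp against HT-DNA+AOA, and Ssr1, Xbp1, Dnajc3, Selenos and Sdf2l1 with HT-DNA+AOA+Asp against HT-DNA, at edgeR or DESeq2 adjusted p of 0.0518 to 0.383. Of the results that were not called, 34 alternatives gave a call and 28 changed sign. Scaled by library size alone, the log2 fold change with HT-DNA against mock was -0.0056 for Dnajb9, -0.048 for Canx, -0.010 for Pdia6, -0.012 for Edem2 and -0.018 for Wfs1. It was -0.0068 for Dnajc10 and -0.019 for Os9 with HT-DNA+AOA against HT-DNA, and 0.046 for Edem2 and 0.0026 for Ssr2 with HT-DNA+AOA+Asp against HT-DNA+AOA. Without a filter, Edem2 stood at 0.00021 in the last of these. For Dnajb9 with HT-DNA+AOA+Asp against HT-DNA, DESeq2 gave -0.00097 and the fit of the 2 groups alone -0.0034. With 1 replicate left out, the ranges were -0.0072 to 0.11 for Dnajb9, -0.0038 to 0.027 for Canx and -0.091 to 0.031 for Sec61b with HT-DNA against mock, -0.00095 to 0.072 for Os9 with HT-DNA+AOA against HT-DNA, and -0.029 to 0.0065 for Edem2 with HT-DNA+AOA+Asp against HT-DNA+AOA. Between HT-DNA+AOA+Asp and HT-DNA they were -0.036 to 0.015 for Derl1, -0.068 to 0.0061 for Atf6b, -0.041 to 0.069 for Dnajb9 and -0.087 to 0.015 for Syvn1. The cause was not tested.

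The counts of listed genes with HT-DNA+AOA against HT-DNA and with HT-DNA+AOA+Asp against HT-DNA+AOA stayed within 1.5 times in the alternatives run. With HT-DNA against mock, the 5 genes that fell became 2 to 6 when 1 replicate was left out: 3 without mock replicate 1, 3 without HT-DNA replicate 1 and 2 without HT-DNA replicate 2. With HT-DNA+AOA+Asp against HT-DNA, 2 genes rose without a filter and 2 in the fit of the 2 groups alone, where 14 fell. Over all genes, 1553 of 14043 fell and 1644 rose in the fit of the 2 groups. With 1 replicate left out 4 to 8 fell in that comparison, 5 without HT-DNA replicate 1, 4 without HT-DNA+AOA+Asp replicate 2 and 5 without HT-DNA+AOA+Asp replicate 3, and 1689 to 2889 of all genes were called, against 2719 with all libraries. A search for CCACG alone found 26 genes in place of 9. With the replicate number as a block, 17 listed genes rose and 4 fell with HT-DNA against mock, 3 and 29 with HT-DNA+AOA against HT-DNA, 25 and 3 with HT-DNA+AOA+Asp against HT-DNA+AOA, and 1 and 8 with HT-DNA+AOA+Asp against HT-DNA. No pairing by replicate number was seen: of 18 pairs of libraries with the same number, none had a correlation of deviations over 0.1 (-0.151 to 0.0456). Among pairs with different numbers, HT-DNA replicate 3 and mock replicate 1 reached 0.144. With 3 libraries a group, such values cannot exclude that the libraries were paired. Depth limited Derl3, with 2 to 9 counts in a library, which was not tested. Scaling by library size alone moved the median of all genes by less than 0.1 in each comparison, but shifted the shares called. With HT-DNA+AOA against HT-DNA, 3116 of all genes rose and 4615 fell under it, against 3750 and 3896. With HT-DNA+AOA+Asp against HT-DNA+AOA, 4842 rose and 3209 fell, against 4165 and 3874. The median of the listed genes became -0.38 and 0.31 in these comparisons, and 0.033 with HT-DNA against mock.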
